A study of Mus musculus with 2 samples.

Results

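The miR-200 family of the mouse comprises 5 microRNA hairpins, Mir200b, Mir200a and Mir429 on chromosome 4 and Mir200c and Mir141 on chromosome 6. They were taken by name from the 2202 microRNA genes counted, and all 5 had reads in both libraries. MicroRNA sequencing was done on adrenal gland tissue of 25-day-old B6CASTF1/J males, which come from a cross of C57BL/6J with CAST/EiJ. There was 1 group with 2 biological replicates, no treatment and no second group. Each replicate has its own animal number in the labels, but 1 donor entry stands for both, so the spread between the libraries may be technical.

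A microRNA hairpin is cut into a short duplex, and the strand kept in the silencing complex pairs with messenger RNAs mainly through its seed, bases 2 to 8. The miR-200 family is known from epithelial cells, where it represses Zeb1 and Zeb2, transcription factors that switch off E-cadherin. Zeb1 and Zeb2 in turn repress both miR-200 clusters, a double-negative loop at the centre of the epithelial to mesenchymal transition (EMT). The family is abundant in tubules, ducts and glands, and is also known from some endocrine and sensory cells. The adrenal cortex makes steroids and the medulla makes catecholamines. Counts of whole-gland RNA cannot tell fewer cells of a type from less RNA per cell.

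The strands for which the family is known are the 3p strands, shown here with the seed in capitals because the seed divides the family across its clusters (RefSeq, GRCm38.p6).
miR-200b-3p, chromosome 4: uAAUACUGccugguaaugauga
miR-429-3p, chromosome 4: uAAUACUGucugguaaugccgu
miR-200c-3p, chromosome 6: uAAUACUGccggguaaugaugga
miR-200a-3p, chromosome 4: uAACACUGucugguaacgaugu
miR-141-3p, chromosome 6: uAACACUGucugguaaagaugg
The seed AAUACUG was found in 3 of the 1738 mature strands of the RefSeq table, and AACACUG in 2, in each case family members only. The seeds differ by U4C, with positions counted from 1 at the 5′ end of miR-200b-3p and the base of miR-200a-3p given last. Each cluster holds both seeds. The messenger RNA stretches that pair with them read CAGUAUU and CAGUGUU.

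The strands closest in sequence lie in different clusters. Between miR-200b-3p and miR-200c-3p, 20 of 22 compared bases were identical, with U11G and A22G as the differences. Between miR-200a-3p and miR-141-3p, 20 of 22 were also identical, with C17A and U22G. Other pairs were identical at 17 or 18 of 22 bases. The longest run of bases shared by a member with any of 1004 other hairpins was 17, between Mir200a and Mir141, and no member shared a run of 20. Reads that map to several places were not counted for any gene in these tables, and among the hairpins compared none was near enough to a member to share a whole mature strand.

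The counts do not separate the arms of a hairpin. Mir200b and Mir200c, the leading member of each cluster, are shown with the 5p and the 3p strand in capitals, since a count at either gene can come from either stretch (RefSeq, GRCm38.p6, minus strand; chr4:156055681-156055750 and chr6:124718322-124718390).
Mir200b: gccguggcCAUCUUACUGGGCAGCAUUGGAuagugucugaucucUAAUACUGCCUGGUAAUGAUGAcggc
Mir200c: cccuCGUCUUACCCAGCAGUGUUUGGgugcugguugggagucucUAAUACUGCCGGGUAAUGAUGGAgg
Mature strands of the family are 21 to 23 bases long, so counts were compared between hairpins without scaling by length.

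The chromosome 4 hairpins lie in the order Mir200b, Mir200a, Mir429 along the minus strand and span 1846 bases (mm10, GENCODE M21). Mir200b (ENSMUSG00000065549.3) has 695 bases between it and Mir200a (ENSMUSG00000065400.1, chr4:156054896-156054985). Mir429 (ENSMUSG00000065427.1, chr4:156053905-156053987) follows after 908 bases. All 3 lie within the noncoding transcript Gm13648 and in introns of the protein-coding gene Ttll10 on the same strand. Within Gm13648, Mir200b and Mir200a are intronic and Mir429 is exonic. On chromosome 6, Mir200c (ENSMUSG00000065462.3) and Mir141 (ENSMUSG00000065474.1, chr6:124717914-124717985) are 336 bases apart, both in an intron of the noncoding Gm15884 on the minus strand. Mir141 also overlaps by 31 bases an exon of Gm29008, a transcript still to be experimentally checked in the annotation. Ptpn6, a phosphatase gene of blood cells, starts upstream on the same strand and ends 2317 bases before Mir200c, and Phb2, a prohibitin gene, lies 964 bases beyond Mir141 on the other strand.

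The annotated start of Gm13648 is 4052 bases upstream of Mir200b. The window from 250 bases before to 50 bases after it is shown as the start region of the transcript that holds all 3 chromosome 4 hairpins, with CACCTG marked, a sequence that Zeb1 is known to bind (RefSeq, GRCm38.p6, chr4:156059753-156060052, minus strand, matches in capitals).
Gm13648 start: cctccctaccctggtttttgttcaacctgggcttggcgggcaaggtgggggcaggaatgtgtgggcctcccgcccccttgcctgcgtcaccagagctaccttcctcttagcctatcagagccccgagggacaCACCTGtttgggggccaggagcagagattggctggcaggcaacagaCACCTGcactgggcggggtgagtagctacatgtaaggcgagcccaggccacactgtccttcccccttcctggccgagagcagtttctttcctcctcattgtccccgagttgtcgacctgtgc
CACCTG occurred 2 times, 118 and 72 bases before the start, and its reverse complement CAGGTG did not occur. Of 32851 windows of this length in the table, 20.2% held at least 1 match on either strand and 2.88% held at least 2. A match describes the letters of the window and is not a measured binding site. No window of this length was found for Gm15884, so the clusters were not compared in this respect, and Zeb1 and Zeb2 were not measured.

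**Figure D1:**
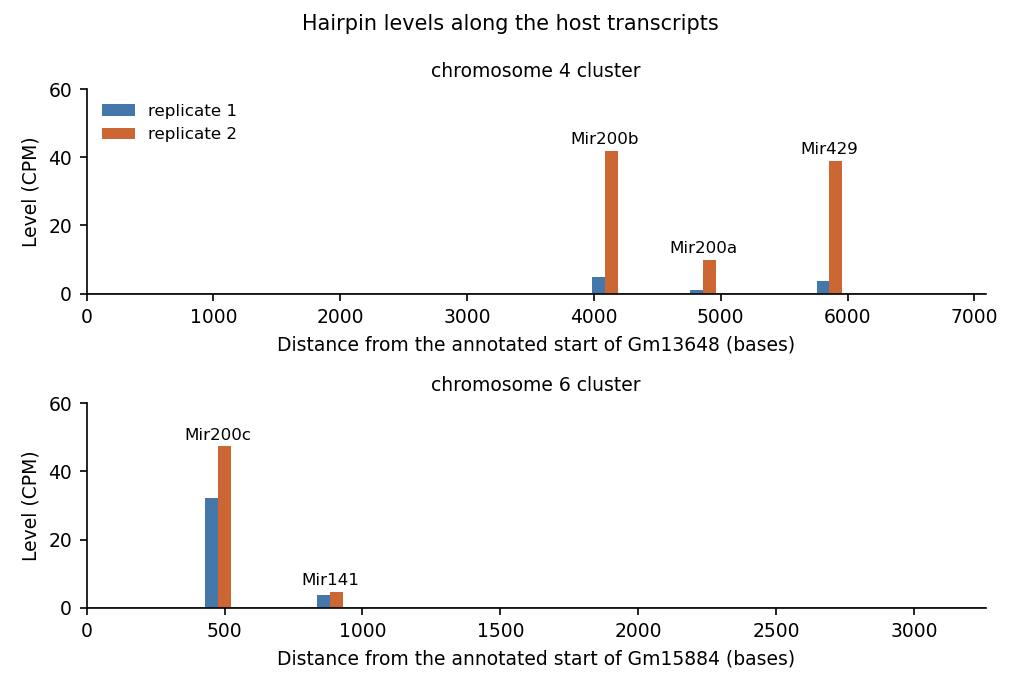
Levels of the 5 hairpins in counts per 1000000 sense counts (CPM, vertical axis) against the distance in bases from the annotated start of the host transcript (horizontal axis), for Gm13648 on chromosome 4 and Gm15884 on chromosome 6, with blue bars for replicate 1 and orange bars for replicate 2. The chromosome 4 bars reach at most 4.74 CPM in replicate 1 and 41.8 CPM in replicate 2, while the bars of Mir200c, at 32.3 and 47.3 CPM, are closer together.

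The libraries held 3588361 (replicate 1) and 4541373 (replicate 2) sense counts over all microRNA genes, which are the totals behind each level in CPM. A count of 0 allowed up to 0.836 and 0.661 CPM. Exact 95% intervals are given with the values. They cover counting error alone, because PCR copies of a molecule cannot be recognised. The libraries differed in make-up. The liver hairpin Mir122 took 19.8% of the counts of replicate 2, against 0.0892% in replicate 1, which lowers the CPM of every other hairpin in replicate 2. The skeletal muscle hairpin Mir206 went the other way, at 987 CPM in replicate 1 against 0.661 CPM. Levels are therefore given per library, and ratios between hairpins of the same library, which need no total, are given beside them.

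The miR-200 family was a minor part of the adrenal pool. Its 164 counts made up 0.00457% of replicate 1, and its 648 counts 0.0143% of replicate 2. Summed, the 5 hairpins reached 45.7 CPM and 142.7 CPM, with a mean of 94.2 CPM ± 68.6 (SD, n = 2). Each of the 5 hairpins had a mean below 110.7 CPM, the median of the 352 genes that reached 10 counts in each library. Of the 5, 4 reached that minimum, and by mean level they ranked 227 (Mir200c), 254 (Mir200b), 257 (Mir429) and 337 (Mir141) among the 352. Mir200a had too few counts in replicate 1.

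Mir200b, the first hairpin of the chromosome 4 transcript, had 17 counts in replicate 1 and 190 in replicate 2. These were 4.74 CPM (2.76 to 7.59) and 41.8 CPM (36.1 to 48.2), with a mean of 23.3 CPM ± 26.2 (SD, n = 2). The intervals were far apart, with replicate 2 the higher. Mir429, which carries the same seed and lies last in the cluster, had 13 and 177 counts. Its levels were 3.62 CPM (1.93 to 6.20) and 39.0 CPM (33.4 to 45.2), a mean of 21.3 CPM ± 25.0. Within each library Mir200b and Mir429 had overlapping intervals. Mir200a, between them and with the other seed, had 4 and 45 counts, or 1.11 CPM (0.304 to 2.85) and 9.91 CPM (7.23 to 13.3), a mean of 5.51 CPM ± 6.22. It was the lowest of the 3 in both libraries, though in replicate 1 its interval overlapped those of its neighbours.

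Mir200c, the first hairpin of the chromosome 6 transcript, had 116 counts in replicate 1 and 215 in replicate 2. It stood at 32.3 CPM (26.7 to 38.8) and 47.3 CPM (41.2 to 54.1), a mean of 39.8 CPM ± 10.6 (SD, n = 2), and had the highest level of the family in both libraries. In replicate 1 no other member came near it, whereas in replicate 2 its interval overlapped those of Mir200b and Mir429. Mir141, its neighbour with the other seed, had 14 and 21 counts, or 3.90 CPM (2.13 to 6.55) and 4.62 CPM (2.86 to 7.07), a mean of 4.26 CPM ± 0.511. The 2 libraries could not be told apart at Mir141. By mean level the family ran Mir200c, Mir200b, Mir429, Mir200a and Mir141. In replicate 1 Mir200b, Mir141, Mir429 and Mir200a, in that order, had intervals that overlapped from each to the next. In replicate 2 Mir200a ranked above Mir141, and its interval lay above that of Mir141.

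**Figure D2:**
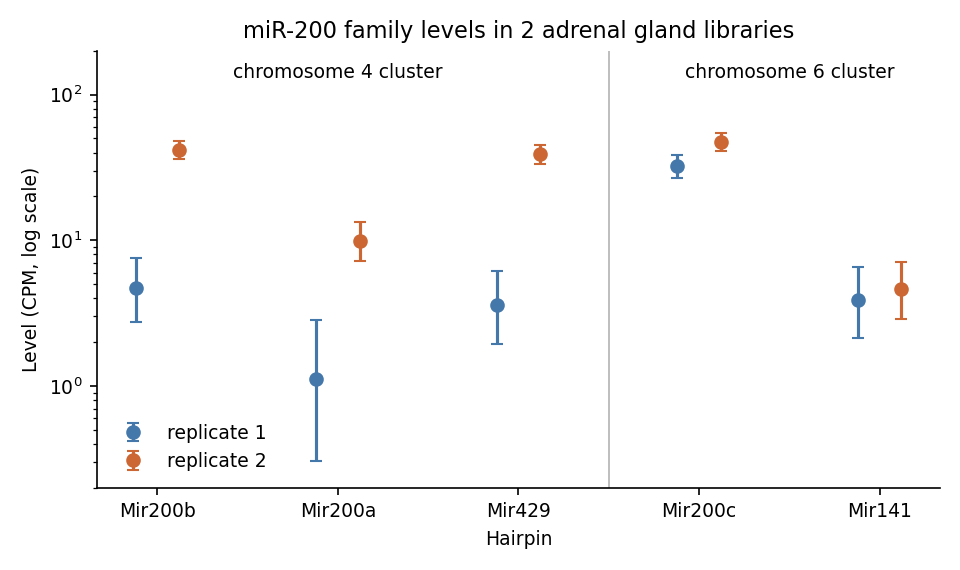
Level of each hairpin in CPM (vertical axis, log scale) in replicate 1 (blue) and replicate 2 (orange), with exact 95% Poisson intervals of the counts as bars. The 3 chromosome 4 hairpins are separated between the libraries, from 1.11 to 4.74 CPM in replicate 1 and from 9.91 to 41.8 CPM in replicate 2, and the bars of Mir141 overlap.

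The clusters differed in how far the libraries were apart. Summed over its 3 hairpins, the chromosome 4 cluster had 412 counts (90.7 CPM) in replicate 2 against 34 (9.48 CPM) in replicate 1, 9.57-fold more (6.74 to 14.0). The chromosome 6 cluster had 130 counts (36.2 CPM) and 236 (52.0 CPM), 1.43-fold more (1.15 to 1.79). The chromosome 4 cluster therefore made up 20.7% of family counts in replicate 1 (14.8 to 27.7, Clopper-Pearson) and 63.6% in replicate 2 (59.7 to 67.3). Its counts were 0.262 times those of the chromosome 6 cluster in replicate 1 and 1.75 times in replicate 2. This ratio, which does not depend on library totals, was 6.67 times higher in replicate 2 (4.37 to 10.4, exact conditional interval).

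Within each cluster the proportions of the hairpins stayed close. Mir200b made up 50% of the chromosome 4 cluster in replicate 1 (32.4 to 67.6) and 46.1% in replicate 2 (41.2 to 51.1). For Mir429 the shares were 38.2% (22.2 to 56.4) and 43.0% (38.1 to 47.9), and for Mir200a 11.8% (3.30 to 27.5) and 10.9% (8.08 to 14.3). Mir200c made up 89.2% of the chromosome 6 cluster in replicate 1 (82.6 to 94.0) and 91.1% in replicate 2 (86.7 to 94.4). All these intervals overlapped between the libraries, although those of replicate 1 are wide. The ratio of Mir200b to Mir200a was 4.25 in replicate 1 and 4.22 in replicate 2. The interval of the change in that ratio, 0.232 to 3.25, leaves room for a difference that 4 counts cannot show. The ratio of Mir200c to Mir141 was 8.29 in replicate 1 and 10.2 in replicate 2, a change of 1.24 times (0.558 to 2.66).

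Pairs that are near-identical in sequence but lie in different clusters did differ between the libraries. Mir200b had 0.147 times the counts of Mir200c in replicate 1 and 0.884 times in replicate 2, a change of 6.03 times (3.44 to 11.1). Mir200a had 0.286 times the counts of Mir141 and then 2.14 times, a change of 7.5 times (1.99 to 34.2). The intervals of both changes lay above 1, while those of the pairs within a cluster included 1. The interval of Mir200a to Mir141 still overlapped those of Mir200b to Mir200a and of Mir200c to Mir141. It lay just above that of Mir200b to Mir429, 0.356 to 1.85.

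**Figure D3:**
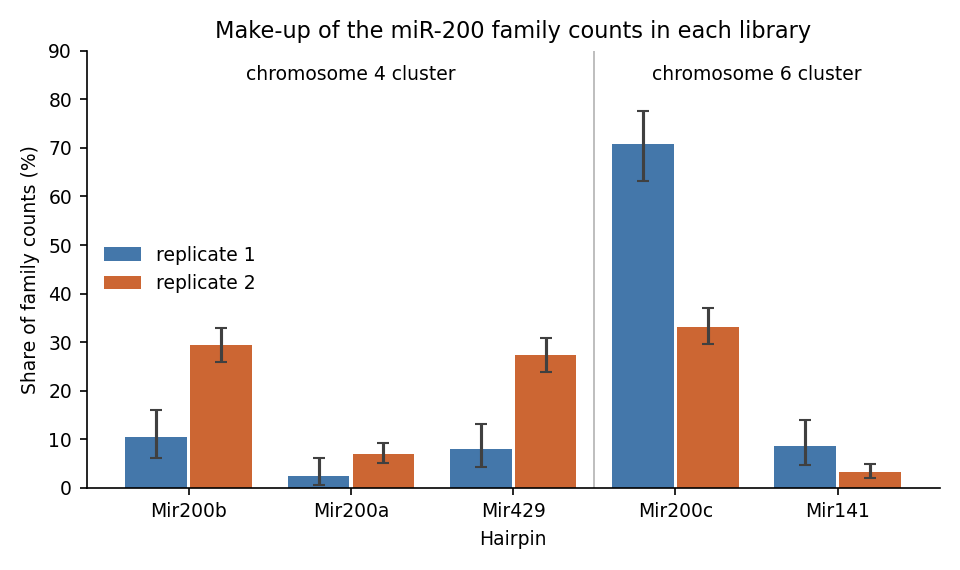
Share of the family's sense counts (vertical axis, percent) held by each hairpin in replicate 1 (blue) and replicate 2 (orange), with exact 95% binomial intervals as bars. Mir200c holds 70.7% in replicate 1 and 33.2% in replicate 2, Mir200b 10.4% and 29.3%, and Mir429 7.93% and 27.3%.

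No shift between the seeds was detectable. Hairpins with the AAUACUG seed (Mir200b, Mir429 and Mir200c) held 89.0% of family counts in replicate 1 (83.2 to 93.4) and 89.8% in replicate 2 (87.2 to 92.0). Hairpins with AACACUG (Mir200a and Mir141) held 11.0% (6.64 to 16.8) and 10.2% (7.97 to 12.8). The ratio of AACACUG to AAUACUG counts was 0.123 in replicate 1 and 0.113 in replicate 2, a change of 0.920 times whose interval, 0.520 to 1.70, rests on 18 AACACUG counts in replicate 1. By cluster, AAUACUG took 88.2% and 89.1% of the chromosome 4 cluster in replicates 1 and 2, and 89.2% and 91.1% of the chromosome 6 cluster. On the CPM scale the AAUACUG hairpins summed to 40.7 CPM and 128.2 CPM in replicates 1 and 2, and the AACACUG hairpins to 5.02 and 14.5 CPM.

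Each gene's reads were set against the library totals with a two-sided exact binomial test, adjusted by Benjamini-Hochberg over the 352 genes, with a threshold of 0.05. It weighs counting error only and compares these libraries, not conditions. It called 67.0% of the 352 genes in either direction, and 30.4% as higher in replicate 2, so a call is common. Of the 4 family members tested, 3 were called, all as higher in replicate 2. Mir200b was 8.83-fold higher (5.37 to 15.5, adjusted p = 1.49e-29, exact test) and Mir429 10.8-fold higher (6.13 to 20.6, adjusted p = 1.01e-29, exact test). Mir200c was 1.46-fold higher (1.16 to 1.85, adjusted p = 0.00164, exact test). Mir141 did not pass, at 1.19-fold (0.575 to 2.52, adjusted p = 0.815, exact test). Mir200a, below the count minimum, had a fold of 8.89 (3.24 to 34) and no test.

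The size of the difference set the chromosome 4 hairpins apart from most genes tested, which a call alone did not. Only 10.2% of the 352 genes were over 2-fold higher in replicate 2 and 1.42%, or 5 genes, over 8-fold. Those 5 were Mir122, Mir192, Mir194-2, Mir429 and Mir200b. The minimum of 10 counts in each library leaves out hairpins nearly absent from replicate 1. These shares and the ranks that follow therefore hold for tested genes only. Untested hairpins past 8-fold included Mir802 (213-fold), Mir194-1 (21.3-fold), Mir205 (17.4-fold) and Mir1948 (9.92-fold). On the log2(CPM + 1) scale the ratio of replicate 2 to replicate 1 was 3.11 for Mir429 and 2.90 for Mir200b, ranks 4 and 5 of 352 from the top. Mir200c at 0.54 ranked 71 and Mir141 at 0.20 ranked 117. Mir200a, not ranked, had 2.37. The median was 1.72 over the 4 tested members and -0.04 over the 352 genes tested. With the untested Mir200a added, the median of all 5 hairpins was 2.37.

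Without Mir122 in the totals, the median gene moved up by 0.30 on the log2 scale, and the share of calls that were higher in replicate 2 went from 45.3% to 70.1%. The chromosome 4 cluster was then 11.9-fold (8.39 to 17.5) and the chromosome 6 cluster 1.79-fold (1.44 to 2.23) higher in replicate 2. The change of total scales every other hairpin of a library alike, so the order of the ratios is not tested by it.

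**Figure D4:**
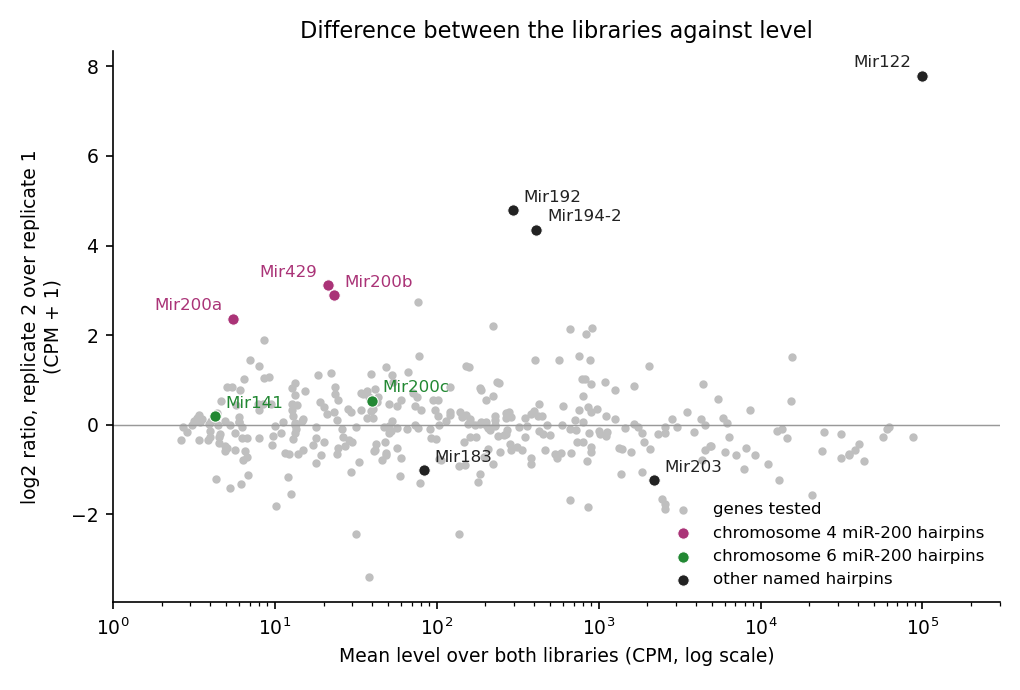
log2 ratio of replicate 2 to replicate 1 (vertical axis, CPM + 1) against mean level in CPM (horizontal axis, log scale) for the 352 genes tested (grey) and for Mir200a, with the chromosome 4 members in purple, the chromosome 6 members in green and other named hairpins in black. Mir429 and Mir200b sit at 3.11 and 2.90, above all grey points of like level, while Mir200c and Mir141 lie within the cloud. Other untested genes are not drawn, among them Mir802, with a mean of 29.9 CPM and a log2 ratio of 5.56.

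Neighbouring hairpins outside the family give a scale for the differences within the clusters. Over 111 pairs of consecutive tested hairpins on the same strand under 10 kb apart, none of them with a family member, the log2 ratios of a pair differed by a median of 0.59, from 0.02 to 3.06. Mir200b and Mir429 differed by 0.21 and Mir200c and Mir141 by 0.34. Both values were below that median, which describes 2 pairs and tests nothing.

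Among the genes tested, the one nearest to Mir200b by level in both libraries was Mir429, at a Euclidean distance of 0.33 over 2 libraries on the log2(CPM + 1) scale. The next tested genes, Mir6538 at 1.31 and Gm23935 at 1.39, were much farther away. Genes below the count minimum were not ranked. Among them, Mir1948 of the liver list had a like pattern, at 2.51 and 24.9 CPM in replicates 1 and 2. Mir200c had closer company, with Mir184 at 0.10, Mir6236 at 0.14 and Mir340 at 0.16. With 2 libraries such likeness rests on 2 values per gene.

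Other hairpins known from epithelia or from EMT were called in both directions. Of the 11 on this list 10 were tested, with 4 called higher and 5 lower in replicate 2 and a median log2 ratio of 0.05, against 6 and 3 and a median of 0.36 without Mir122 in the totals. Over all 352 genes tested, 107 were called higher and 129 lower, against 176 and 75 without Mir122 in the totals. Mir203, a hairpin of stratified epithelium, had 3085 and 1313 CPM in replicates 1 and 2 and was called lower, at 0.426 of its replicate 1 level. It had 651 times the counts of Mir200b in replicate 1 and 31.4 times in replicate 2. Mir31 was nearly level at 689 and 646 CPM, 0.937 of replicate 1, and was called lower (adjusted p = 0.0279, exact binomial test), but higher without Mir122 in the totals. Mir205, known from basal epithelial cells, had 1 count against 22 in replicate 2, a ratio of 17.4 (2.81 to 717), and was not tested.

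The sensory and neuroendocrine cluster of Mir183, Mir96 and Mir182 was split. Mir183 was called lower, with 111.2 and 54.6 CPM in replicates 1 and 2, and Mir182 higher, with 417 and 476 CPM. Mir96, at 11.1 and 14.3 CPM, was not called, but was called higher without Mir122 in the totals. The miR-34 hairpins, which p53 induces and which repress Snai1, were split as well. Mir34a was 2.75-fold higher (2.57 to 2.94), at 305 and 839 CPM, while Mir34c stood at 0.480 of its replicate 1 level. Mir34b stood at 0.695, a call that was lost without Mir122 in the totals. Mir101a and Mir101b, which target the Polycomb enzyme gene Ezh2, were 1.73-fold and 4.08-fold higher. They share a run of at least 20 bases with each other, so reads that fit both were left uncounted.

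Kidney and liver hairpins included the largest differences in favour of replicate 2 among the lists. The kidney list summed to 106.5 CPM in replicate 1 and 1400 CPM in replicate 2, with 2 of 3 tested members called higher and 1 lower. Mir192 had 70 and 2584 counts, 29.2-fold higher (23.0 to 37.5), and Mir194-2 had 135 and 3581, 21-fold higher (17.6 to 25.1). Mir194-1, with 1 and 27 counts, was not tested. It shares a run of at least 20 bases with Mir194-2, so reads that fit both were left uncounted. The miR-192 and miR-194 families are known from kidney, gut and liver. Mir204, known from kidney and from the eye, was called lower, at 48.5 and 35.7 CPM, but not without Mir122 in the totals. Mir215 had 2 and 6 counts.

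The liver list summed to 1518 and 198617 CPM, with both tested members called higher. These counts stand against 67.0% of all tested genes called and 30.4% called higher. Mir122 had 892 and 197553 CPM, and Mir148a was 1.57-fold higher (1.49 to 1.65). Mir802 had 1 and 270 counts and Mir1948 9 and 113, both untested. In the pancreas list the defining hairpins were at or near 0, with Mir216a and Mir216b at 0 counts in replicate 1 and 1 in replicate 2, and Mir217 at 2 and 4. Mir375, which the adrenal gland and the pancreatic islet both express, was called lower at 33380 and 29004 CPM, and higher without Mir122 in the totals. Mir192, Mir194-2 and Mir122 were thus higher in the same library as the chromosome 4 cluster, while Mir204 was not. The part of kidney or liver RNA in the difference of the cluster was not tested.

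**Figure D5:**
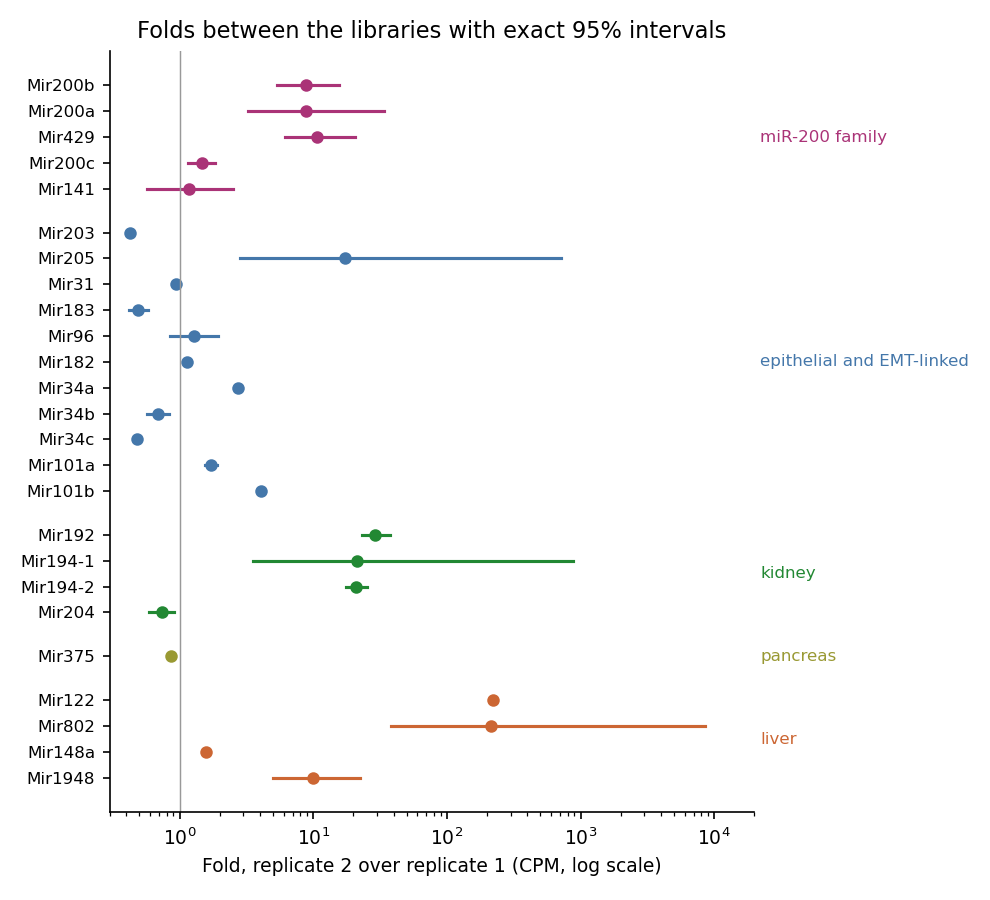
Fold of replicate 2 over replicate 1 (horizontal axis, log scale) with exact 95% intervals for the 5 family members and for the named hairpins of the epithelial and EMT-linked, kidney, pancreas and liver lists; the vertical line marks equal levels. Mir200b, Mir200a and Mir429 lie between 8.83 and 10.8, below Mir192 and Mir194-2 at 29.2 and 21, while Mir203 and Mir204 lie under 1.

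Lists for the gland's other compartments differed less in summed level. Their calls stand against 107 higher and 129 lower among all 352 genes tested, or 176 and 75 without Mir122 in the totals. Neuroendocrine hairpins summed to 40675 and 34383 CPM, with 2 of 8 tested called higher and 5 lower (4 and 4 without Mir122 in the totals), and Mir375 led them. The adrenal cortex list summed to 35695 and 22866 CPM, with 1 of 6 tested called higher and 4 lower (2 and 4 without Mir122), led by Mir21a at 18167 and 7728 CPM. Endothelial hairpins summed to 68035 and 68372 CPM, with 3 of 4 tested called higher and 1 lower, the latter being Mir126a at 62826 and 60799 CPM, which was called higher without Mir122 in the totals. Smooth muscle and stroma hairpins summed to 49832 and 33054 CPM, with 1 of 5 tested called higher and 3 lower, also without Mir122 in the totals, and were led by Mir143 at 45599 and 30787 CPM.

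Blood hairpins summed to 3188 and 1980 CPM, with all 4 called lower but 2 without Mir122 in the totals, when Mir451a, at 1208 and 1010 CPM, was no longer called. Among all 352 genes tested 129 were called lower, and 75 without Mir122 in the totals. The ciliated list summed to 2667 and 1360 CPM, with 2 of 3 tested called lower (1 lower and 1 higher without Mir122), and was led by Mir34c at 2505 and 1202 CPM. Striated muscle hairpins summed to 993 and 0.661 CPM and none passed the count minimum. Nearly all of this sum was Mir206, with 3540 counts in replicate 1 and 3 in replicate 2. Mir1a-2 was next with 13 and 0, and Mir133b and Mir133a-2 had 0 in both. Hairpins of this list other than Mir206 were not checked for shared runs of 20 bases, and reads that fit several places were left uncounted. Their low counts therefore cannot show low levels of their mature strands. The medians of the log2 ratio were -0.34 for the neuroendocrine, -0.51 for the adrenal cortex, 0.35 for the endothelial, -0.72 for the smooth muscle and stroma, -0.50 for the blood and -0.52 for the ciliated list, over their tested members. Without Mir122 in the totals the same medians were -0.02, -0.19, 0.67, -0.46, -0.18 and -0.21.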

How the data were processed

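MicroRNA sequencing of adrenal gland tissue gave 2 libraries of 1 group. For each microRNA gene the authors deposited raw read counts on mm10 with GENCODE M21, per the text files beside the tables. Aligner, counter and trimming: not given in the sources used here. Of the 3 count columns the sense column was used, and the 4 summary lines stayed out of totals. They put 31.6% and 27.0% of the 8666085 and 10284575 input reads as mapped to several places.

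Levels are counts per 1000000 sense counts. Log2 ratios used a pseudocount of 1 CPM. A gene was tested if it had 10 or more counts in each library, by an exact binomial test with Benjamini-Hochberg adjustment. On simulated data with 352 genes, 200 of them changed, it recovered 78.1% of the 1.5-fold changes and all 8-fold ones (100%), while 1.33% to 2.40% of unchanged genes were called. The simulated counts held counting error alone, as the test assumes, with no spread between libraries or shift in make-up like that of Mir122. These rates are therefore not the error rates of the calls in the real libraries. Members and lists were chosen with earlier results of these data known. Named genes were the 5 members, members of 4 of the 11 lists with at least 10 counts in either library, the leading hairpin of other lists, the 3 genes nearest to each cluster's leading hairpin, and neighbouring genes. Mir215, Mir216a, Mir216b, Mir217, Mir133b and Mir133a-2, all below 10 counts, were named after their values were seen. So were Mir1a-2 and the 5 genes past 8-fold. Mir7a-1 and Mir7a-2 were matched as Mir7-1 and Mir7-2. Sequences came from RefSeq (GRCm38.p6), where all 5 members matched, while no window at the start of Gm15884 was found. Alternatives were totals from edgeR 4.0.16 (TMM) and DESeq2 1.42.0, totals without Mir122 or of all input reads, other minimums and pseudocounts, the either-strand column and each library alone. The software was R 4.3.3 and Python 3.11.15 with scipy 1.17.1, numpy 2.4.6, matplotlib 3.10.9 and pandas 2.3.3.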

Additional observations from a re-analysis of the deposited data

Results flagged for a closer look

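Antisense counts enter no comparison above. At the 5 miR-200 hairpins, none of which has an annotated hairpin on the opposite strand, antisense counts were 0 in both libraries. Among the other hairpins named that have no such partner, Mir203 had in both libraries more antisense counts than the 3 that a count of 0 allows, 956 in all. Replicate 1 held 385 of them, 3.36% of its reads at Mir203 over both strands, and replicate 2 held 571, which is 8.74%. At Mir34b only replicate 2 was above that limit, with 5 such counts, and replicate 1 had 3. Mir126a, with 7 and 40, faces the annotated hairpin Mir126b, whose sense counts are equal to these.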

How the results depend on the processing

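The family level was 94.2 CPM as the mean of both libraries and ran from 45.7 to 142.7 CPM with one library left out. Other totals gave 111.8 (without Mir122), 94.2 (TMM) and 94.9 CPM (DESeq2), the either-strand column gave 111.5 CPM, and all input reads gave 41.0 per 1000000 reads. The either-strand counts of the 5 hairpins equalled their sense counts, while the totals of that column were smaller, at 2989916 and 3854821 in replicates 1 and 2. The share of family counts from chromosome 4 had a mean of 42.2% and ran from 20.7% to 63.6% with one library left out. Both means lie far from either library. The comparison of reads called 210 to 251 genes across its settings, against 236. It could not be run with one library left out. Mir200b, Mir429 and Mir200c stayed called as higher in replicate 2 in every setting that tested them, and the highest adjusted p of Mir200c was 0.00327 (exact binomial test). Mir141 stayed uncalled, with adjusted p from 0.372 to 0.958 (exact binomial test) and log2 ratios from 0.07 to 0.46. With every gene of at least 1 count tested, Mir200a was called (adjusted p = 2.67e-07, exact binomial test). A pseudocount of 10 CPM lowered its log2 ratio from 2.37 to 0.84, and one of 0.1 CPM raised it to 3.04. Counts of 4 to 17 for 4 of the 5 members in replicate 1 limit all ratios between hairpins.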
